A study of Mus musculus with 10 samples.

Results

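Transcripts of 10 genes that act on mitochondrial NADPH, methylglyoxal, superoxide and hydrogen peroxide were followed in mouse liver: Nnt, Glo1, Hagh, Sod1, Sod2, Cat, Gpx1, Gpx4, Prdx3 and Txn2. They are 10 of the 18193 genes that have a probe set annotated to a lone gene symbol on the Affymetrix Mouse Genome 430 2.0 array, and they hold 28 of its 45101 probe sets. Where a gene had several probe sets, the one with the highest mean represented it. All 10 genes passed the filter on low signal, which kept 11059 genes. The livers came from female mice of the inbred strains DBA/2J (D2) and C57BL/6J (B6). Both strains received a diet high in fat and cholesterol and were sampled at 0, 1, 4, 12 and 21 weeks. Each strain thus had 4 time points on the diet, called fed here, and week 0 before it. Total RNA of 5 mice was pooled per strain and week, and each pool was measured on 1 array, which gave 5 D2 and 5 B6 arrays. The genomes differ at both lead genes: B6 is known to carry a deletion inside Nnt, and D2 a duplicated segment that holds Glo1.

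NNT, nicotinamide nucleotide transhydrogenase, sits in the inner mitochondrial membrane and uses the proton gradient to make NADPH from NADH. That NADPH keeps glutathione and thioredoxin reduced in the matrix, where SOD2 turns superoxide into hydrogen peroxide and PRDX3, recharged by TXN2, removes it. GLO1 and HAGH are the consecutive enzymes of the glyoxalase pathway, which turns methylglyoxal, a reactive by-product of glycolysis, into D-lactate with glutathione as cofactor. The deletion in C57BL/6J takes out several exons of Nnt and leaves the strain without functional NNT protein, which is why Nnt is often checked in metabolic work on B6 livers.

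Signals are given as normalised log2 values unless called linear, and a difference is a log2 difference, D2 minus B6 or fed minus week 0. Signals of different probe sets are not on a common scale, so levels are compared only within a probe set. The weeks served as replicates of a strain, so an SD over 5 arrays holds time on the diet and age along with the spread between pools, and the number of arrays limits the precision. Each pool averages 5 mice, so the spread between animals cannot be seen. Trimmed means (2% cut at each end) of the deposited signals ran from 55.8 to 88.7 over the arrays, a ratio of 1.59, and were lowest on both week 0 arrays. The summed linear signal of 12 hepatocyte markers was 61455 to 65725 in D2 and 63086 to 66671 in B6, but quantile normalisation ties the brightest probe sets to common values, so an even sum says little. With arrays centred on their median instead, 10 of the 12 were higher in D2 (median 0.12, beside 0.03 over all genes). On the diet 11 of 12 were lower (median -0.21, beside 0.16 over all genes), and none passed either test. The 20 macrophage markers did not stay level: their sum ran from 4366 to 6317 in D2, against 4412 to 26373 in B6, where it was highest at week 4 and next highest, at 13796, at week 21. All 19 of these markers that passed the filter averaged lower in D2, and 1 of them passed the strain test. Over all genes tested 4.07% passed it lower in D2. Of 13 stellate cell and matrix markers above the filter 12 were lower in D2 and 4 of those passed. The sum over all 14 listed ran from 2242 to 2871 in D2, against 2835 to 5344 in B6, where it too was highest at week 4. Of 10 endothelial markers 7 were lower and 3 higher in D2, with a median of -0.05. Only Lyve1 passed, lower in D2 by a difference of -1.74. In bulk liver, fewer cells of a type and less RNA per cell cannot be told apart.

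Promoter windows of 250 bases before to 50 bases after a transcript start (RefSeq, GRCm38.p6) were at hand for 9 of the 10 genes, in 13 windows. They are shown for Glo1 and Prdx3, whose transcripts differed between the strains as described below, and for Hagh and Sod1, the members with a window that holds the core of the antioxidant response element, the sequence read by the oxidative stress factor NRF2. Capitals mark that core, TGACNNNGC on either strand, and windows without capitals hold no match.
Glo1, chr17:30612610-30612909, minus strand: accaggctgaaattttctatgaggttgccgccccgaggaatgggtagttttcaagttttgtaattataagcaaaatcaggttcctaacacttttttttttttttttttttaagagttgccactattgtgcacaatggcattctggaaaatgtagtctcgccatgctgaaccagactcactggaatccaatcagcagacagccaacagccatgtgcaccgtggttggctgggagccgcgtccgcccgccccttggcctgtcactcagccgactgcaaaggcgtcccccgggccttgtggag
Prdx3, chr19:60874489-60874788, minus strand: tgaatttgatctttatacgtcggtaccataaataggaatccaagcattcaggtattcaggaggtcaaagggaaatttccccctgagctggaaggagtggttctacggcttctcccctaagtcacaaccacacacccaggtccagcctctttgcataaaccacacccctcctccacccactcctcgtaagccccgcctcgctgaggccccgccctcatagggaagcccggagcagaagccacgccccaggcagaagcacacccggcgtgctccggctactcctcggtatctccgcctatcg
Hagh, chr17:24850417-24850716, plus strand: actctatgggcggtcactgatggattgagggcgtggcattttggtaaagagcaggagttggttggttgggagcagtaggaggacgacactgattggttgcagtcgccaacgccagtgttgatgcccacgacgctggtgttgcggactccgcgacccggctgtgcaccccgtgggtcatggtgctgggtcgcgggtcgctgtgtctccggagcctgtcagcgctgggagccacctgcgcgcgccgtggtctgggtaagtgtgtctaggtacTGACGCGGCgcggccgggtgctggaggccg
Sod1, chr16:90220512-90220811, plus strand, core on the minus strand: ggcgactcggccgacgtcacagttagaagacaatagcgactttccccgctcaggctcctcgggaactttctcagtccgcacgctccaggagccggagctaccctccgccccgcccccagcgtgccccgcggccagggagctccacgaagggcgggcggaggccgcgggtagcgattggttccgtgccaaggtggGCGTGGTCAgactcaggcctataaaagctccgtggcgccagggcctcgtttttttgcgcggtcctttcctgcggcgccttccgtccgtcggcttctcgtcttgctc
Of 32851 such windows in the mouse table, 4071 (12.4%) hold the core on either strand. Among the 13 windows of the members, 2 hold it, and the windows are reference sequence, not that of D2.

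The strain comparison asked which of the 10 transcripts differed between D2 and B6 over all weeks. Nnt and Glo1 were higher in D2, by 2.28-fold and 1.74-fold, and Prdx3, the mitochondrial peroxiredoxin, was lower in D2, at 0.768 of the B6 level. The other 7 did not pass the test. Over all genes tested, 882 of 11059 passed (7.98%), 432 higher in D2 (3.91%) and 450 lower (4.07%), by limma with week as a block and a Benjamini-Hochberg adjusted p under 0.05, and 386 to 558 did without week 4, 12 or 21 of either strain. The median difference over the 10 members was -0.01, beside 0.01 over all 11059 genes.

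Nnt lies on chromosome 13 at 119335527 to 119409257 (GRCm38.p6). Its linear signal on the brightest probe set, 1416105_at, was 1121, 1066, 1114, 1062 and 965 in D2 at 0, 1, 4, 12 and 21 weeks. In B6 it was 461, 531, 385, 446 and 524 at the same weeks. The strains did not overlap, the lowest D2 array being week 21 and the highest B6 array week 1, and 461 of the genes tested (4.17%) likewise had all D2 arrays above all B6 arrays. D2 averaged 10.06 ± 0.09 and B6 8.87 ± 0.19 (log2, SD, n = 5 arrays each), a difference of 1.19 ± 0.11 (SE, 95% interval 0.95 to 1.43, limma adjusted p = 0.000575). D2 was higher by 1.28, 1.00, 1.53, 1.25 and 0.88 at the successive weeks. On this probe set the smallest gap was thus at week 21 and the largest at week 4, when B6 was at its lowest. By p-value Nnt ranked 60 among the 11059 genes.

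Nnt was read by 3 probe sets. The second, 1456573_x_at, had levels of 10.25, 9.60, 9.69, 9.72 and 10.08 in D2, against 8.69, 8.80, 8.64, 8.83 and 8.96 in B6. Here too every D2 array lay above every B6 array, but the gap was largest at week 0 (1.57) and smallest at week 1 (0.80). The difference was 1.08 ± 0.11 (SE, limma adjusted p = 0.000849 over all 34945 probe sets with a lone symbol, of which 3.37% passed, 1.56% higher and 1.81% lower in D2). The third, 1432608_at, was dim, at 3.67 ± 0.46 in D2 and 3.32 ± 0.37 in B6 (SD, n = 5 each), below the filter of 3.74. Its difference of 0.35 ± 0.31 did not pass (adjusted p = 0.647), and B6 was above D2 at week 0. Both bright Nnt probe sets thus gave a signal well above the filter in all 5 B6 arrays, with D2 over B6 ratios of 2.28 and 2.12. Where the probes lie relative to the deleted exons is not given in the sources used here.

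Glo1 encodes glyoxalase 1 and lies on chromosome 17 at 30592861 to 30612659. On its brightest probe set, 1424109_a_at, the linear signal in D2 was 2567, 3179, 4014, 3304 and 3796 at 0, 1, 4, 12 and 21 weeks. In B6 it was 1953, 2186, 1963, 1772 and 1712. The lowest D2 array, week 0, was still above the highest B6 array, week 1. D2 averaged 11.70 ± 0.25 and B6 10.90 ± 0.14 (SD, n = 5 each), a difference of 0.80 ± 0.12 (SE, 95% interval 0.54 to 1.07, limma adjusted p = 0.00544).

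All 4 Glo1 probe sets gave the same direction at all 5 weeks, with no overlap between the strains. The 3 others differed more than the brightest. Probe set 1424108_at averaged 11.13 ± 0.25 in D2 and 10.02 ± 0.26 in B6, a difference of 1.12 ± 0.08 (adjusted p = 9.92e-05 over all probe sets). Probe set 1451240_a_at averaged 11.39 ± 0.24 in D2 and 10.34 ± 0.20 in B6, a difference of 1.05 ± 0.08 (adjusted p = 0.000114). Probe set 1436070_at averaged 9.68 ± 0.48 in D2 and 8.53 ± 0.19 in B6, a difference of 1.15 ± 0.15 (adjusted p = 0.00274). These correspond to D2 over B6 ratios of 1.74 for the brightest and 2.17, 2.07 and 2.21 for the others. In all, 6 of the 7 probe sets of Nnt and Glo1 passed, all higher in D2. With eBayes without a trend 3 of the 7 passed, the adjusted p being 0.119 for 1424109_a_at, 0.0786 for 1436070_at and 0.0513 for 1456573_x_at.

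The Glo1 probe sets did not show the same course over the weeks. On the brightest, D2 was higher by 0.39, 0.54, 1.03, 0.90 and 1.15 at the successive weeks, and on 1436070_at by 0.73, 0.98, 1.46, 0.81 and 1.74. On 1424108_at the gap was 1.11, 1.12, 0.99, 1.07 and 1.29, and on 1451240_a_at it was 0.93, 1.08, 1.04, 1.06 and 1.14. The gap was smallest at week 0 and largest at week 21 on 3 of the 4 probe sets, but on 1451240_a_at it moved only between 0.93 and 1.14, and on 1424108_at it was smallest at week 4. The test of the diet response between the strains on the brightest probe set gave 0.51 ± 0.24 (D2 minus B6, SE, limma adjusted p = 0.821) and did not pass. On the other three probe sets it was 0.00, 0.15 and 0.51, and none passed.

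**Figure D1:**
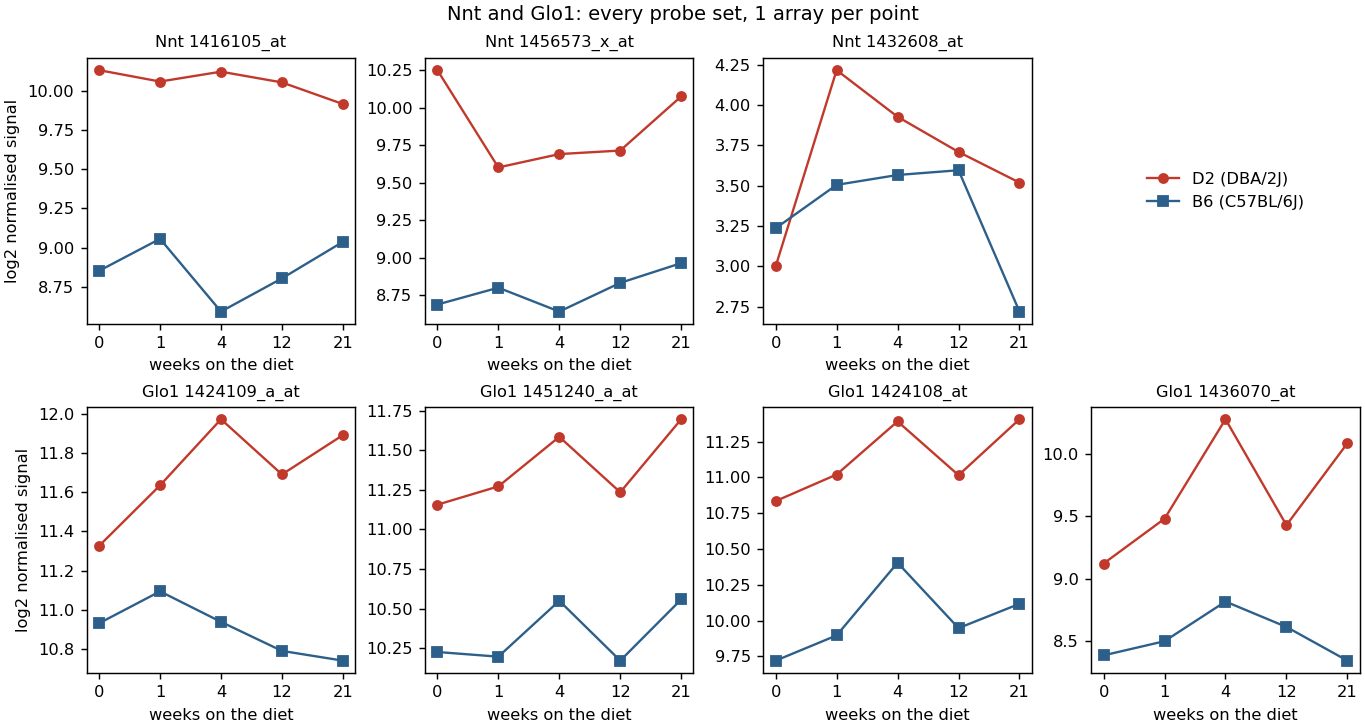
Normalised log2 signal of each probe set of Nnt (top) and Glo1 (bottom) against weeks on the diet, 1 array per point, D2 in red circles and B6 in blue squares, each panel with its own axis range. D2 lies above B6 at every week on 6 of the 7 probe sets; on the dim 1432608_at the lines cross between week 0 and week 1.

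The thioredoxin arm of the matrix was represented by Prdx3 and Txn2. Prdx3, on chromosome 19 at 60864066 to 60874538, has 1 probe set, 1416292_at. Its linear signal was 721, 700.4, 642, 708 and 513 in D2 at 0, 1, 4, 12 and 21 weeks, against 829, 812, 958, 869 and 787 in B6. All 5 D2 arrays were below all 5 B6 arrays, and D2 was lowest at week 21. D2 averaged 9.35 ± 0.20 and B6 9.73 ± 0.11 (SD, n = 5 each), a difference of -0.38 ± 0.09 (SE, 95% interval -0.59 to -0.17, limma adjusted p = 0.045). Of all genes tested, 457 (4.13%) had all D2 arrays below all B6 arrays. The Prdx3 call is close to the threshold. It was lost whichever of the 10 arrays was left out, with differences from -0.43 to -0.32 (limma adjusted p from 0.0599 to 0.149). Leaving out 1 array also takes its partner of the same week out of the strain difference, because week is a block. Either array of a week thus gave the same difference, so these are not 10 separate checks. The call was also lost without the week block (adjusted p = 0.05).

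Txn2, mitochondrial thioredoxin, reads less plainly because its 3 probe sets disagree. The brightest, 1455640_a_at, was 8.56, 8.77, 8.64, 8.82 and 8.84 in D2, against 8.62, 9.24, 8.89, 8.88 and 9.28 in B6. D2 was lower at all 5 weeks, by 0.06 at week 0 and by up to 0.47 at week 1, but the strains overlapped. The difference of -0.26 ± 0.10 (SE, 95% interval -0.48 to -0.04) did not pass (limma adjusted p = 0.148). The other two probe sets differed by 0.03 and 0.01.

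Neither Sod2 nor Gpx4 passed the test. Sod2, the matrix superoxide dismutase, was 10.52, 10.32, 10.29, 10.51 and 10.73 in D2, against 10.90, 10.83, 10.94, 10.44 and 10.62 in B6. On this probe set, 1417193_at, D2 was below B6 at weeks 0, 1 and 4 and above it at weeks 12 and 21. The difference was -0.27 ± 0.12 (SE, 95% interval -0.56 to 0.01, adjusted p = 0.224 by limma), and all 4 Sod2 probe sets were lower in D2 on average, by 0.19 to 0.36. On 1448610_a_at D2 was lower at all 5 weeks (differences -0.58 to -0.04), as on 1454976_at (-0.42 to -0.03). On the fainter 1417194_at D2 was above B6 at week 12 only. Gpx4, which reduces lipid hydroperoxides in membranes, was 10.60, 10.60, 10.52, 10.52 and 10.64 in D2, against 10.51, 10.76, 10.88, 10.58 and 10.95 in B6. Its 2 probe sets differed by -0.16 and -0.15, and D2 was lower at 4 of 5 weeks on the brighter one (adjusted p = 0.283). On the other, 1451695_a_at, all D2 arrays were below all B6 arrays, as for 4.13% of all genes tested. That difference did not pass (limma adjusted p = 0.395 over all probe sets). On their brightest probe sets, the B6 levels of Gpx4 and Txn2 were highest at weeks 1, 4 and 21 and lowest at week 0. The macrophage marker sum in B6 was 9551 or more at weeks 1, 4 and 21 and lowest at week 0. Yet Txn2 on that probe set was nearly level between weeks 4 and 12, at 8.89 and 8.88, when the sum was 26373 and 4633. Both other Txn2 probe sets were lowest in B6 at week 4. The other Gpx4 probe set was also highest at weeks 1, 4 and 21 but lowest at week 12. The part of macrophages or of stellate cells in the Gpx4, Txn2, Prdx3 and Sod2 values was not tested.

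Sod1, Cat and Gpx1 were the most even of the members after quantile normalisation, which ties the brightest probe sets to common values. With arrays centred on their median they differed by 0.10, 0.09 and 0.09, beside 0.03 over all genes. Gpx4 differed by -0.10 on that scale. Sod1, the copper and zinc dismutase of the cytosol, averaged 12.03 ± 0.14 in D2 and 12.02 ± 0.09 in B6, a difference of 0.01 ± 0.06 (SE, 95% interval -0.14 to 0.16, limma adjusted p = 0.962). Cat, the peroxisomal catalase, averaged 12.07 ± 0.06 in D2 and 12.08 ± 0.08 in B6, with an interval from -0.15 to 0.12 (adjusted p = 0.923). Its other probe set, 1416430_at, also bright, differed by 0.13, from -0.02 to 0.31 over the weeks. That did not pass (limma adjusted p = 0.531 over all probe sets). Gpx1, the glutathione peroxidase of cytosol and mitochondria, averaged 12.20 ± 0.07 in D2 and 12.20 ± 0.03 in B6, with an interval from -0.12 to 0.12 (adjusted p = 0.992). On the quantile normalised scale these intervals leave room for strain differences of up to 0.16 either way. Hagh, the hydrolase that follows GLO1, averaged 10.86 ± 0.12 in D2 and 10.73 ± 0.15 in B6, a difference of 0.13 ± 0.10 (interval -0.09 to 0.35, adjusted p = 0.454). Its 3 probe sets were higher in D2 by 0.13, 0.23 and 0.38, and none passed.

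**Figure D2:**
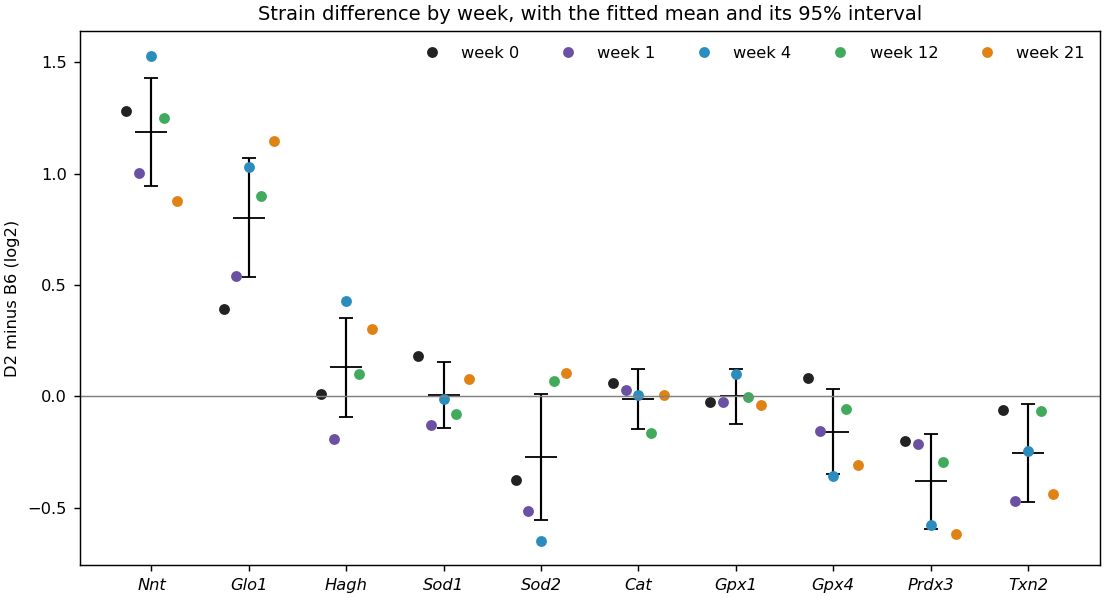
D2 minus B6 difference (log2) of each of the 10 genes, with a coloured point for each week and a black bar for the fitted mean and its 95% interval. All 5 points of Nnt and of Glo1 lie above 0, from 0.88 to 1.53 and from 0.39 to 1.15, and all 5 of Prdx3 lie below it.

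**Figure D3:**
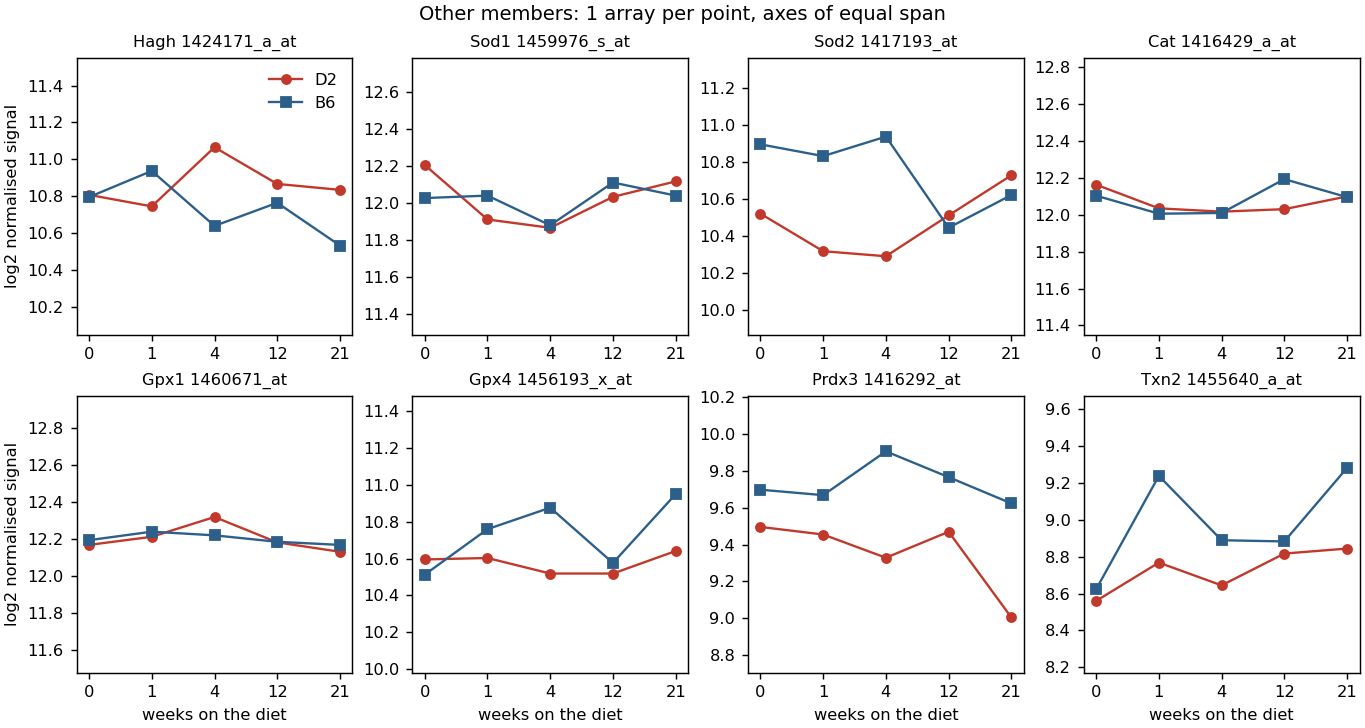
Normalised log2 signal of the 8 members other than Nnt and Glo1 against weeks on the diet, 1 array per point, D2 in red circles and B6 in blue squares, on axes of equal span. On the brightest probe sets, which are shown, the ranges of the strains do not overlap for Prdx3 and overlap for the other 7. The lines nearly coincide for Cat and Gpx1.

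The diet comparison asked what differed between the 8 fed arrays and both arrays of week 0, allowing each strain its own level. None of the 10 genes passed, while 72 of the 11059 genes did (0.651%), 46 higher (0.416%) and 26 lower (0.235%) on the diet, and 1928 had an unadjusted p under 0.05. On probe set 1416105_at Nnt in D2 averaged 10.04 ± 0.09 when fed and 10.13 at week 0, and B6 8.87 ± 0.22 when fed and 8.85 at week 0 (SD, n = 4 fed arrays). The combined Nnt change was -0.04 ± 0.12 (SE, 95% interval -0.31 to 0.24, limma adjusted p = 0.902), and its response differed between the strains by -0.11 ± 0.26 (adjusted p = 0.977). All 4 fed D2 arrays were below their week 0, and 2 of 4 fed B6 arrays were above theirs. On 1456573_x_at the fed D2 arrays were again below week 0, with a change of -0.48 within D2 and 0.12 within B6 (adjusted p = 0.434 and 0.849 by limma over all probe sets). The difference between these, -0.60 ± 0.27, did not pass (adjusted p = 0.688).

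Glo1 in D2 averaged 11.80 ± 0.16 when fed and 11.33 at week 0, with all 4 fed arrays above week 0 by 0.31 to 0.64. In B6 it averaged 10.89 ± 0.16 when fed and 10.93 at week 0, with 2 of 4 fed arrays above. Tested within a strain, the D2 difference was 0.47 ± 0.17 (SE, limma adjusted p = 0.338) and the B6 difference -0.04 ± 0.17 (adjusted p = 0.938). The 3 other Glo1 probe sets were higher on the diet in B6 as well, by 0.37 on 1424108_at (4 of 4 fed arrays above week 0), 0.18 on 1436070_at (3 of 4) and 0.14 on 1451240_a_at (2 of 4). In D2 they differed by 0.37, 0.70 and 0.29, with 4 of 4 fed arrays above week 0 on each, and none passed in either strain. Within each strain 13 genes passed (0.118%), and for the difference between the strains' responses 1 gene did (0.00904%).

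Among the brightest probe sets, that of Txn2 had the largest difference on the diet, though other probe sets of Glo1 (0.44 on 1436070_at, 0.37 on 1424108_at) and Hagh (0.41 on 1437519_x_at) differed more. On its brightest probe set it averaged 8.77 ± 0.09 in fed D2 arrays, against 8.56 at week 0. In B6 it averaged 9.07 ± 0.22 when fed, against 8.62 at week 0. All 8 fed arrays were above their strain's week 0, as were those of 1231 genes (11.1%). The change was 0.33 ± 0.13 (SE, 95% interval 0.04 to 0.62) and did not pass (limma adjusted p = 0.231). On the other Txn2 probe sets, 1421557_x_at and 1452782_a_at, the change was 0.15 and 0.09. Within D2 it was 0.28 and 0.29, with 4 of 4 fed arrays above week 0 on each. Within B6 it was 0.03 and -0.11, with 3 of 4 and 1 of 4 fed arrays above week 0. For Gpx4, the fed D2 arrays differed from their week 0 by -0.08 to 0.05 and the fed B6 arrays from theirs by 0.06 to 0.44. Its change was -0.02 ± 0.14 within D2 and 0.28 ± 0.14 within B6 (SE, limma adjusted p = 0.449), and the difference between these did not pass (-0.30 ± 0.20, adjusted p = 0.891). On its brightest probe set Sod1 in D2 was below week 0 on all 4 fed arrays (-0.22 ± 0.13, adjusted p = 0.549), while on 1451124_at, also bright, 2 of 4 were above and the D2 change was 0.00. The combined changes of the remaining members, Hagh, Sod1, Sod2, Cat, Gpx1 and Prdx3, ran from -0.12 to 0.03.

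The scale between arrays matters for the diet comparison. Without normalisation the median change of all 11059 genes on the diet was 0.52, and with each array centred on its median 0.16, against 0.01 after quantile normalisation. On the deposited signals, Glo1 (0.56), Gpx1 (0.25), Gpx4 (0.49) and Txn2 (0.83) passed the test together with 4977 genes. Relative to the median of all genes on that scale, Glo1 was at 0.04, Gpx1 at -0.27, Gpx4 at -0.03 and Txn2 at 0.32. Among fed arrays no gene passed for a slope against time (523 of 11059 had an unadjusted p under 0.05), and the members' slopes ran from -0.04 to 0.03 per doubling of the week.

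**Figure D4:**
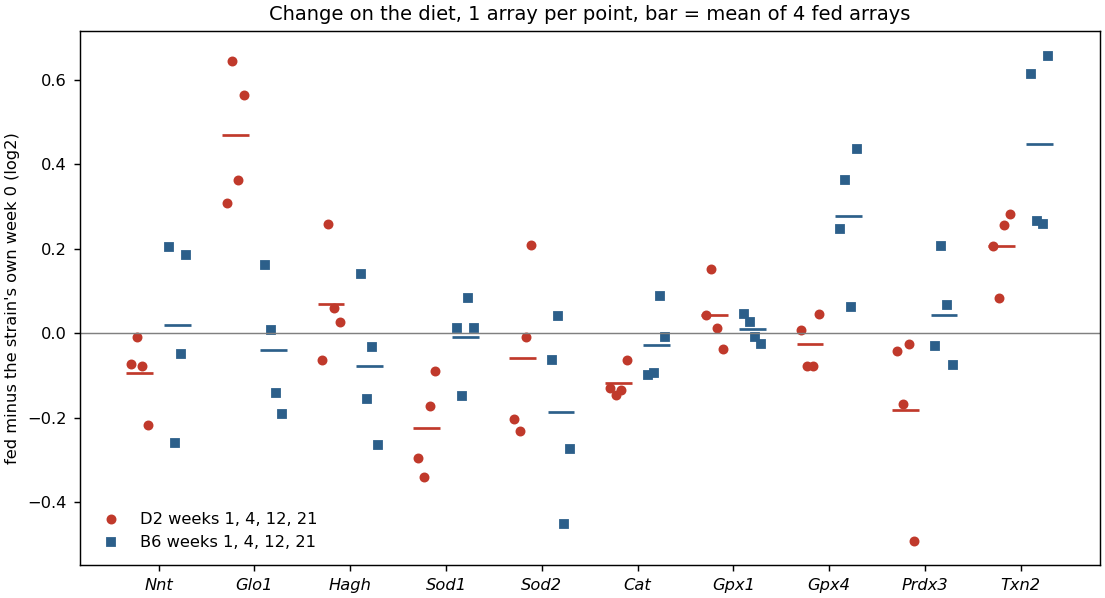
Difference of each fed array from its own strain's week 0 array (log2) for the 10 genes, D2 circles left and B6 squares right with weeks 1, 4, 12 and 21 in order, and a bar at the mean of the 4. On the brightest probe sets, which are shown, Glo1 in D2 and Txn2 in both strains lie above 0 on all fed arrays. No member passed the test.

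Genes that work with the 10 members were read from lists by role. Over all genes tested 3.91% passed the strain test higher in D2 and 4.07% lower. With lists this short, 1 gene called in a direction is not a result about the list. Of 13 genes of the thioredoxin, peroxiredoxin and glutaredoxin system, none passed the strain test (median difference 0.04, 8 of 13 positive, beside 0.01 over all genes). On the deposited signals 1 passed and 6 of 13 were positive (median -0.02, beside -0.07 over all genes). On that scale 8 of 13 lay above the median of all genes. Of 9 genes for other glutathione peroxidases and for glutathione synthesis and reduction, 1 was lower in D2 and none higher (median -0.10, 8 of 9 negative). With arrays centred on their median 5 of 9 were negative (median -0.07, beside 0.03 over all genes), and 2 of 9 lay above the median of all genes. The gene that passed was Gpx3, the secreted plasma peroxidase, at 5.0 ± 0.23 in D2 and 6.50 ± 0.65 in B6 (SD, n = 5 each, difference -1.50 ± 0.19 SE, limma adjusted p = 0.00294). Gsr, glutathione reductase, differed by -0.01 and was not called.

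Of 13 genes listed for NADPH supply, 1 was higher and 1 lower in D2 (median -0.10). Being on the list does not mean that an enzyme makes NADPH itself, and NADPH was not measured. Aldh4a1, a mitochondrial enzyme that completes proline breakdown to glutamate, averaged 10.11 ± 0.17 in D2 and 9.21 ± 0.29 in B6 (difference 0.90 ± 0.12, limma adjusted p = 0.00333). Nadk, the cytosolic kinase that makes NADP from NAD, averaged 9.80 ± 0.07 in D2 and 10.22 ± 0.11 in B6 (difference -0.42 ± 0.08, limma adjusted p = 0.0186). The Nadk call was lost in 8 of 21 alternatives, among them without week 0 or week 21 of either strain (adjusted p 0.0541 to 0.0795). Idh2, the NADP-linked isocitrate dehydrogenase of mitochondria, differed by -0.01 and was not called.

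Of 11 genes for reactive carbonyl detoxification other than Glo1 and Hagh, none passed. Their median was -0.17, with 10 of 11 negative, and 10 of 11 were also negative on the deposited and the median-centred scales. Of 12 genes for peroxide and superoxide sources, Hao2, a peroxisomal oxidase of long-chain hydroxy acids, was higher in D2 (difference 2.30 ± 0.26, limma adjusted p = 0.00185). Xdh, xanthine dehydrogenase, was lower, at 7.89 ± 0.32 in D2 and 9.27 ± 0.27 in B6 (difference -1.38 ± 0.14, limma adjusted p = 0.00106). The list's median was -0.26. It holds the phagocyte oxidase genes Cyba (-1.23), Cybb (-1.15), Ncf1 (-0.89) and Ncf4 (-0.52), none of which passed. The macrophage markers were lower in D2 as well, 19 of 19 with a median of -0.78, and their part in these values was not tested. The 15 genes of mitochondrial content, respiratory chain and import genes among them, had a median of 0.00 and none was called, with a summed linear signal from 20793 to 22259 in D2 and from 19611 to 22836 in B6. On the diet none of the genes on these lists passed after quantile normalisation, beside 0.651% of all genes tested.

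Because the strains differ in the DNA around both lead genes, the 5 nearest named genes on each side were read too. Of the 10 around Glo1, 5 passed the filter and none was called, among them Btbd9, 10240 bases away (0.22, limma adjusted p = 0.369). Dnah8, 14276 bases away, was below the filter, and its 2 probe sets were higher in D2 by 1.10 and 1.23 without passing. Of the 10 around Nnt, 5 passed the filter and 2 were lower in D2, beside 4.07% of all genes tested. Tmem267, a membrane protein gene 78829 bases away, averaged 4.24 ± 0.22 in D2 and 6.88 ± 0.56 in B6 (difference -2.64 ± 0.18, limma adjusted p = 0.000135). The gene 4833420G17Rik, 52758 bases away, averaged 6.64 ± 0.23 in D2 and 8.31 ± 0.39 in B6 (difference -1.67 ± 0.17, adjusted p = 0.00128), and its 3 brightest probe sets differed alike, by -1.80 to -1.53. Another above the filter, 1430220_at (mean 4.78), differed by 0.18 without passing (limma adjusted p = 0.774 over all probe sets). The dim 1431318_at differed by 0.47 and did not pass either.

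Paip1, a regulator of translation 19074 bases from Nnt and its nearest neighbour, gave different readings by probe set. Its brightest, 1451740_at, was level at 7.76 ± 0.14 in D2 and 7.81 ± 0.25 in B6. Probe set 1425521_at averaged 6.80 in D2 and 2.88 in B6 (difference 3.91 ± 0.19, limma adjusted p = 1.24e-05 over all probe sets), and 1441955_s_at averaged 6.05 in D2 and 3.70 in B6 (2.35 ± 0.23, adjusted p = 0.000516). The part of strain variants under the probes in any of these values, those of Nnt and Glo1 included, was not tested.

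**Figure D5:**
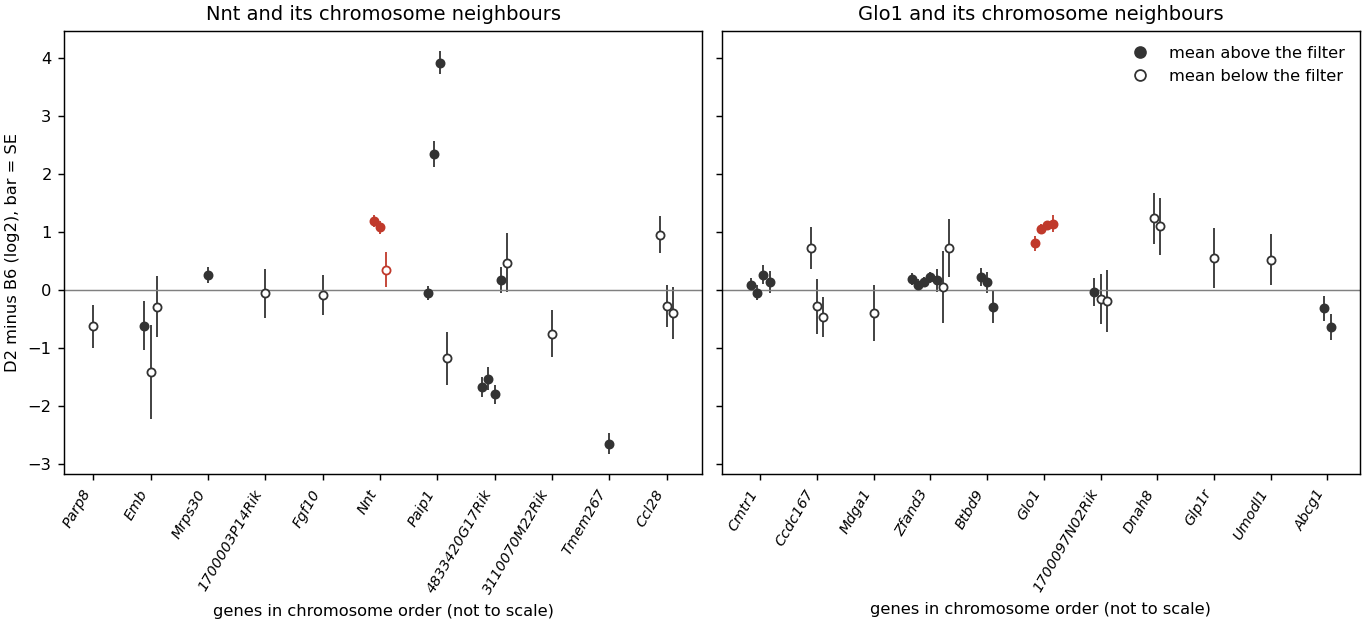
D2 minus B6 difference (log2, bar = SE) of every probe set of Nnt (left, red) and Glo1 (right, red) and of the 5 named genes on each side in chromosome order, with filled points above the filter and open points below it. Around Nnt the probe sets of Paip1 spread from -1.18 to 3.91 and Tmem267 lies at -2.64, while around Glo1 no neighbour above the filter is as far from 0 as Glo1.

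The genes with the course most like that of Nnt over the 10 arrays were Rbm45 (Pearson r = 0.983), Tmem19 (0.982) and Cyp2c39 (0.979). Those most like Glo1 were Hdhd3 (0.982), Ifi27 (0.977) and Exd1 (0.972). All 6 lie on other chromosomes than the gene they resemble and were higher in D2, for example Rbm45 at 6.86 ± 0.09 in D2 and 4.16 ± 0.30 in B6. These correlations are a description over 10 arrays that fall into 2 strains. Nnt and Glo1 correlated at 0.88 over all arrays and at -0.13 once each strain's mean was taken off. On the brightest probe sets, the closest members within the strains were Sod1 with Cat (0.78) and Gpx4 with Txn2 (0.67). Sod1 ran opposite to Gpx1 there (-0.72). Correlations on other probe sets were not computed, and those of Txn2 disagree in course as described above. Quantile normalisation ties bright probe sets, such as those of Sod1, Cat and Gpx1, to common values.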

How the data were processed

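The authors deposited 1 signal intensity per probe set and array on a linear scale, computed with GCOS per the submitters' processing notes, with version and scaling not given in the sources used here. The table holds no detection calls.

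The 10 arrays were quantile normalised, because the trimmed means of the deposited intensities differed by over 1.5 times, and analysed as log2(signal + 1.05). The pseudocount is the 10th percentile of the deposited values. Control probe sets (64), probe sets with several symbols (932) and those without one (9160) were left out. Symbols came from the platform annotation, of which 34741 probe sets matched RefSeq (GRCm38.p6) by gene identifier. Genes with a mean above the 50th percentile, 3.74 log2, were tested with limma 3.58.1 under R 4.3.3 (statmod 1.5.0, version 1.17.8 of data.table), using lmFit and trended eBayes, with p-values adjusted by Benjamini-Hochberg over all genes at 0.05. Figures used Python 3.11.15 and matplotlib 3.10.9.

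In the strain fit the labelled week was a block, each week holding a D2 and a B6 pool. Deviations from the strain means correlated at 0.38, 0.02, 0.10, 0.25 and 0.16 within weeks 0, 1, 4, 12 and 21. The diet fit had a strain term, and responses within strains came from 4 group means. Fits within a strain borrow the fed arrays' spread for week 0. With 1 pool per strain and week, p-values measure the spread between the weeks' pools.

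On simulated data, the strain fit recovered 67% of 100 genes changed by 1 log2 and 96% of 100 changed by 2, the diet fit 58% and 88%, and the interaction 20% and 56%, over 11059 genes each. The noise was drawn independently for each array, with the SD left after strain and week were fitted. Variation shared within a week was thus absent. The diet and interaction fits have no week term and carry it in the real data, so their recovery may be too high.

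Members and lists were chosen with earlier results of these data known. Named genes were all members, up to 4 called genes per list with the smallest p, the 5 named neighbours each side of Nnt and Glo1, and the 3 genes most correlated with each. Gsr, Idh2, Btbd9, Dnah8 and Paip1 were singled out after their values were seen. Alternatives covered the scale between arrays, pseudocount, floor, filter, probe set choice, variance model, block, and each array left out.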

Additional observations from a re-analysis of the deposited data

Results flagged for a closer look

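The dim Nnt probe set 1432608_at stood out in the fed B6 arrays: the week 21 array read 2.72 (log2), and the nearest of the other 3 fed B6 arrays read 3.51. The gap was 0.897 of the group's range, above Dixon's 95% critical value for 4 samples. Fed D2 arrays read 3.52 to 4.22 on it. Of 30 groups checked this was the 1 that passed, and chance alone passes about 1 in 20. The probe set lies below the filter on low signal, and the bright Nnt probe sets read 9.04 and 8.96 on the same array. The strain difference of this probe set, 0.35 with the array, was 0.24 without the B6 array of week 21, and it did not pass the test either way.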

How the results depend on the processing

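Nnt and Glo1 were called higher in D2 under all 21 alternatives, with differences of 0.87 to 1.27 (adjusted p up to 0.00577) and 0.72 to 1.03 (up to 0.0319). Prdx3 stayed negative in all 21 but lost its call in 17, so 2 of 10 members were called in those. In the strain fit the alternatives are not all separate. Leaving out either array of a week gave the same difference, and fed arrays only repeated that without week 0. Leaving out any 1 array gave 2 members called in the strain comparison, 0 in every diet, interaction and trend comparison, and 6 of 7 probe sets of Nnt and Glo1. With eBayes without trend 3 of the 7 probe sets were called, and the calls were lost of 3 others (1424109_a_at at adjusted p = 0.119, 1436070_at at 0.0786, 1456573_x_at at 0.0513). On the deposited signals 4 members were called on the diet and 2 within B6 (Gpx4 0.69, Txn2 1.00). Without the replicate block, 2 members and 775 genes were called in the strain comparison instead of 3 and 882, and 6 probe sets, and the block changed no other call of a member.

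Over all genes, the strain comparison called 386 to 714 with an array left out, under 1.5 times fewer than 882 only without an array of week 0 or 1, and 610 on the deposited signals, split 206 higher and 404 lower beside 432 and 450. The diet comparison called 4977 on the deposited signals (4936 higher, 41 lower, beside 46 and 26), 313 with arrays centred (276 higher), 19 without the strain term, 30 or 36 when D2 lacked week 4 or 21, 47 when B6 lacked week 21, 14 when either strain lacked week 0, and up to 94 with another array left out. Over all alternatives the counts were 2 to 45 within D2 (13 as reported), 0 to 1939 within B6 (13), and 0 to 1 for the interaction.

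The remaining sign changes concern values that were not called as reported. On the deposited signals Gpx1 differed between strains by -0.0078, and on the diet Nnt by 0.40, Hagh by 0.34, Sod1 by 0.11, Sod2 by 0.24, Cat by 0.16, Prdx3 by 0.37 and Glo1 within B6 by 0.38. With arrays centred, Cat differed between strains by 0.090, and on the diet Nnt by 0.045, Gpx1 by -0.11 and Prdx3 by 0.011. With the mean of all probe sets, Cat (0.060) and Paip1 (1.26, adjusted p = 0.00678) differed between strains, Nnt (0.087), Hagh (0.15) and Glo1 within B6 (0.16) on the diet, and Nnt in the interaction (0.0053). With fed arrays only, Sod1 gave -0.036 and Paip1 0.026. With an array left out, strain differences that changed sign were Sod1 (-0.036 to 0.041), Cat (-0.031 to 0.025), Gpx1 (-0.023 to 0.011) and Paip1 (-0.13 to 0.026), and diet changes were Nnt (-0.094 to 0.020), Glo1 (-0.040 to 0.47), Hagh (-0.077 to 0.071), Gpx4 (-0.025 to 0.28), Prdx3 (-0.18 to 0.043) and Glo1 within B6 (-0.11 to 0.0097). Of the 50 differences by member and week, 24 were above 0 as reported, and 27 and 28 on the other scales. The cause of these changes was not tested. The number of arrays, and for dim probe sets the signal over background, limit all values.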
